A study of Homo sapiens with 6 samples.

Results

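Aminoacyl-tRNA synthetases are the enzymes that load each transfer RNA with its amino acid, the step that fixes the genetic code before the ribosome acts. The members described here are the genes whose symbol follows the synthetase pattern (an amino acid letter, ARS, then 1 or 2), with EPRS1, FARSA and FARSB, and AIMP1, a scaffold of the complex that holds several of the enzymes. They were picked by a rule on gene names, and that rule was set with earlier results of these data known. Of 40 genes listed for this family, 36 were measured by 93 probe sets that name only that gene, among 18132 genes tested in all. The others are not analysed here. Of the 36 genes, 20 are grouped as cytosolic and 16, with symbols ending in 2, as mitochondrial.

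The cytosol and the mitochondrion translate separately, and each draws on its own set of synthetases, all encoded in the nucleus. KARS1 and GARS1 are exceptions, since each of these genes makes the enzyme of both compartments. Many cytosolic synthetase genes are known targets of ATF4, the transcription factor of the amino acid response, which is switched on when the kinase GCN2 senses uncharged tRNA. In growing tumour cells the enzymes are needed in step with protein synthesis.

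By their titles the samples are TPC-1, a long-used line from a human papillary carcinoma of the thyroid, given a lentivirus carrying either an shRNA against SHCBP1 (3 arrays) or a control shRNA (3 arrays). The extraction text of the labels names another line, DLD1, for the same samples. SHCBP1 is a partner of the adaptor SHC1 with a role in cytokinesis, and the comparison asks which transcripts differ once it is depleted. The number of hairpin designs behind each group is not given in the sources used here, which means that depletion of SHCBP1 cannot be told apart from side effects of a hairpin. Nothing in the labels ties the 3 samples of a group to separate cultures, so p-values may measure technical spread alone.

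The deposited values are log2 values set to a median of 0 over the 6 arrays for every probe set. They compare arrays and hold no level, so neither the labelled cell line nor the rank of the enzymes by abundance could be checked. Among 9 measured thyroid markers 1 was higher (FOXE1, by 0.24) and 0 were lower, and among 7 intestinal markers 1 was higher (CDX2, by 0.12) and 1 lower (KRT20, with a change of -1.09). These counts stand beside 22.0% higher and 19.0% lower over all genes. The rises of FOXE1 and CDX2 fall below 0 with the spike-in scaling given below, since both are smaller than its shift of 0.43. SHCBP1 had centred values of -0.95, -0.76 and -0.72 in the SHCBP1 shRNA arrays, against 0.72, 0.76 and 0.71 in the control shRNA arrays, a fall that passed the test (limma adjusted p = 1.87e-06). A lower value in a culture cannot tell fewer expressing cells from less RNA per cell, and 3 arrays per group limit the precision. Differences below are SHCBP1 shRNA minus control shRNA on the log2 scale, each with limma's standard error (SE, n = 3 arrays per group), and a gene passed the test at a Benjamini-Hochberg adjusted p under 0.05 over all 18132 genes.

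The promoters of several cytosolic members hold a short motif that the ATF4 response is known to use, and these stretches are shown first. Whether the motif bears on the changes of these genes was not tested. The motif searched was TGATGNAA on either strand (TTNCATCA when read from the other strand), the core of the C/EBP-ATF response element, in RefSeq windows of 300 bases (250 before to 50 after each transcript start, build GRCh38.p14). Entries were found for 31 of the 36 members. LARS1, VARS1, YARS1, AARS2 and VARS2 had none. The motif was in 7 of 17 cytosolic members (41.2%), 1 of 14 mitochondrial members (7.14%) and 522 of 14425 tested genes with an entry (3.62%). The 8 matches are printed on the strand of the gene, 5′ to 3′, with the motif in capitals and 11 bases on each side.
AARS1 (chr16:70289675-70289704, minus strand): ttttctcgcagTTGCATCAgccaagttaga
CARS1 (chr11:3057407-3057436, minus strand): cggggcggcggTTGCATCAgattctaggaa
MARS1 (chr12:57488053-57488082, plus strand): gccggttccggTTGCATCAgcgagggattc
TARS1 (chr5:33440956-33440985, plus strand): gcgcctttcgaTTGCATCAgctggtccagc
IARS1 (chr9:92293692-92293721, minus strand): ttttcagcgcgTTGCATCAcctccgtgcgc
NARS1 (chr18:57621804-57621833, minus strand): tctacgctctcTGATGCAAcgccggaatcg
GARS1 (chr7:30594834-30594863, plus strand): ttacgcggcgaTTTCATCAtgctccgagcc
YARS2 (chr12:32756076-32756105, minus strand): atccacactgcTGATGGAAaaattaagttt

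The form with C at the free position, TGATGCAA or TTGCATCA, was in 6 cytosolic members, 0 mitochondrial members and 136 of the 14425 tested genes (0.943%). Counting the first transcribed base as 1, the motif began at -2 in CARS1, -4 in MARS1, 3 in TARS1, -13 in IARS1, 15 in NARS1 and -33 in GARS1, so these matches lie at the start of the transcript. It began farther upstream at -187 in AARS1 and -197 in YARS2. All 7 cytosolic members that hold it were lower in the SHCBP1 shRNA arrays, by 0.28 to 0.74, whereas YARS2 was higher by 0.20 (lower with the spike-in scaling given below). Over all tested genes the share that fell was 19.9% with the motif and 19.8% without it, and the share that rose was 15.5% and 23.3%. EPRS1, WARS1, SARS1, KARS1 and FARSA also fell, by 0.51 to 0.88, with no match in the windows read. GARS1, TARS1 and CARS1 have several RefSeq starts, and the motif was found at 1 of them in each. A match is a run of letters, and binding was not measured. The 250 bases before the start of AARS1 (chr16:70289507-70289756, minus strand), the strongest faller with a match, are given for context.
AARS1: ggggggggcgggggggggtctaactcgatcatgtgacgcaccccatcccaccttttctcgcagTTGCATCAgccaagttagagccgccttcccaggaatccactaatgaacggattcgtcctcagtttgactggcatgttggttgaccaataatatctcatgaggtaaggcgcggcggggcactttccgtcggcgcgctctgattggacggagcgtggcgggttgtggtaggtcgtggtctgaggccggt

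Most cytosolic synthetase genes were lower after SHCBP1 knockdown, and the mitochondrial ones were split. Of the 20 cytosolic members 16 fell and 4 rose, and 0 did not pass, while of the 16 mitochondrial members 5 fell, 4 rose and 7 did not pass. Over all genes 41.0% passed, 19.0% lower and 22.0% higher. The median change was -0.40 over cytosolic members and 0.01 over mitochondrial members, beside 0.02 over all tested genes. By array, the median centred value of the cytosolic members was -0.23, -0.17 and -0.19 in the SHCBP1 shRNA arrays, against 0.21, 0.16 and 0.21 in the control shRNA arrays. For the mitochondrial members it was between -0.0120 and -0.0024 in the SHCBP1 shRNA arrays and between -0.0466 and 0.0342 in the control shRNA arrays, where the groups overlap. A fall of at least 0.5 was seen in 10 members, 8 of them cytosolic (4.69% of all genes), and a rise of that size in 0 (3.52% of all genes). The 3 arrays of one group lay entirely apart from the 3 of the other in 31 of 36 members (50.0% of all genes), 23 of them lower (22.7% of all genes) and 8 higher (27.3% of all genes).

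A direction here is set against the bulk of transcripts on an array. The poly-A spike-ins, platform controls for bacterial transcripts that are meant to be added to the RNA (whether they were is not given in the sources used here), gave 0.21 on average in the SHCBP1 shRNA arrays and -0.22 in the control shRNA arrays (difference 0.43 ± 0.04, SE), and scaling to them moves the median of all genes by -0.43. On that scale 16709 of all 18132 genes passed, and the median over all genes was -0.41. Of the 36 members 35 were lower and 0 higher, so each of the 8 rises reported here becomes a value below 0. CARS2 (-0.02, limma adjusted p = 0.698) is the member that did not pass. The falls keep their direction on that scale, and any rise of a gene outside the family that is smaller than 0.43 also turns.

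**Figure D1:**
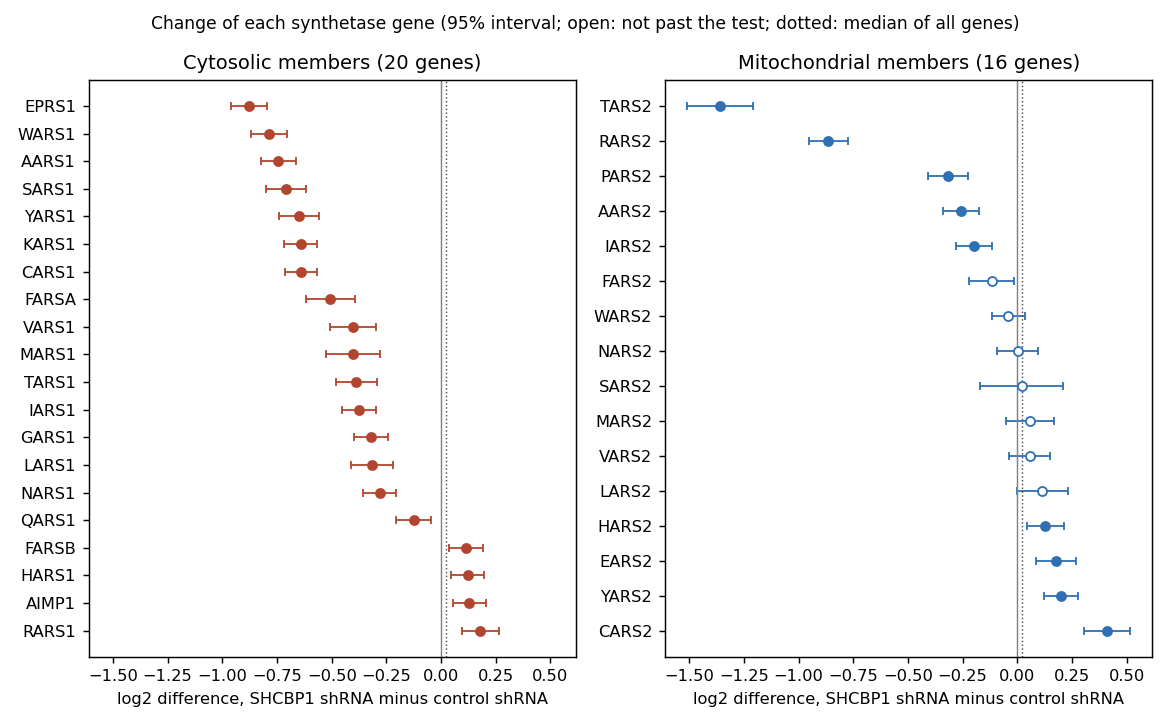
Change of each of the 36 synthetase genes (log2 difference, SHCBP1 shRNA minus control shRNA, x axis) with its 95% confidence interval, cytosolic members on the left and mitochondrial on the right. Filled points passed limma's test and open points did not, and the dotted line is the median of all genes (0.02). Cytosolic members run from -0.88 (EPRS1) to 0.18 (RARS1) and mitochondrial members from -1.36 (TARS2) to 0.41 (CARS2), and the points above 0 fall below it with spike-in scaling.

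Among cytosolic members the largest fall was that of EPRS1, which encodes a fused enzyme for glutamate and proline and is part of the multisynthetase complex. Its centred values were -0.45, -0.41 and -0.47 in the SHCBP1 shRNA arrays, against 0.41, 0.44 and 0.46 in the control shRNA arrays. The groups lie far apart and the arrays within each differ little, and the change of -0.88 ± 0.03 (1.84-fold, limma adjusted p = 1.83e-06) places EPRS1 in the lowest 1.37% of all genes. Its probe sets gave -0.95 and -0.81.

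WARS1, the tryptophan enzyme, which is also known as an interferon-induced gene, had -0.40, -0.43 and -0.36 in the SHCBP1 shRNA arrays, against 0.39, 0.37 and 0.42 in the control shRNA arrays. The change was -0.79 ± 0.04 (limma adjusted p = 3.08e-06), and no array of one group came near the other. Its 4 probe sets were not equal: 3 fell by 0.92 to 1.02 and the fourth by 0.21.

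AARS1, the alanine enzyme, had -0.39, -0.43 and -0.35 in the SHCBP1 shRNA arrays, against 0.36, 0.35 and 0.35 in the control shRNA arrays. SARS1, the serine enzyme, had -0.31, -0.34 and -0.36 in the SHCBP1 shRNA arrays, against 0.41, 0.31 and 0.39 in the control shRNA arrays. Both fell without overlap, AARS1 by 0.74 ± 0.03 (limma adjusted p = 3.28e-06) and SARS1 by 0.71 ± 0.04 (limma adjusted p = 8.04e-06). SARS1 rests on 1 probe set.

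For YARS1, the tyrosine enzyme, the values were -0.34, -0.30 and -0.29 in the SHCBP1 shRNA arrays, against 0.40, 0.29 and 0.32 in the control shRNA arrays. CARS1, the cysteine enzyme, showed -0.31, -0.31 and -0.30 in the SHCBP1 shRNA arrays, against 0.33, 0.31 and 0.36 in the control shRNA arrays. The control value of YARS1 in replicate 1 was the highest of its group, and the 3 SHCBP1 shRNA values of CARS1 were almost the same. The change of YARS1 was -0.65 ± 0.04 (limma adjusted p = 1.14e-05, 1 probe set) and that of CARS1 -0.64 ± 0.03 (limma adjusted p = 4.61e-06, 3 probe sets from -0.67 to -0.62).

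KARS1, the lysine enzyme of both compartments, had -0.30, -0.34 and -0.34 in the SHCBP1 shRNA arrays, against 0.31, 0.30 and 0.33 in the control shRNA arrays. FARSA, the catalytic subunit of the phenylalanine enzyme, had -0.26, -0.33 and -0.19 in the SHCBP1 shRNA arrays, against 0.19, 0.25 and 0.29 in the control shRNA arrays. The arrays of FARSA spread more than those of KARS1, yet neither gene overlapped. The change of KARS1 was -0.64 ± 0.03 (limma adjusted p = 5.11e-06) and that of FARSA -0.51 ± 0.05 (limma adjusted p = 0.000103, 1 probe set).

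The partner subunit of FARSA did not follow it. FARSB, which completes the same tetrameric enzyme, had 0.05, 0.05 and 0.10 in the SHCBP1 shRNA arrays, against -0.03, -0.06 and -0.05 in the control shRNA arrays, and was the cytosolic member nearest 0. It rose by 0.12 ± 0.03 (limma adjusted p = 0.0261), a rise that becomes a fall of 0.32 with spike-in scaling. The intervals of the subunits, -0.62 to -0.39 for FARSA and 0.04 to 0.19 for FARSB, do not meet. Of the 5 probe sets of FARSB, from 0.07 to 0.15, 1 passed on its own.

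**Figure D2:**
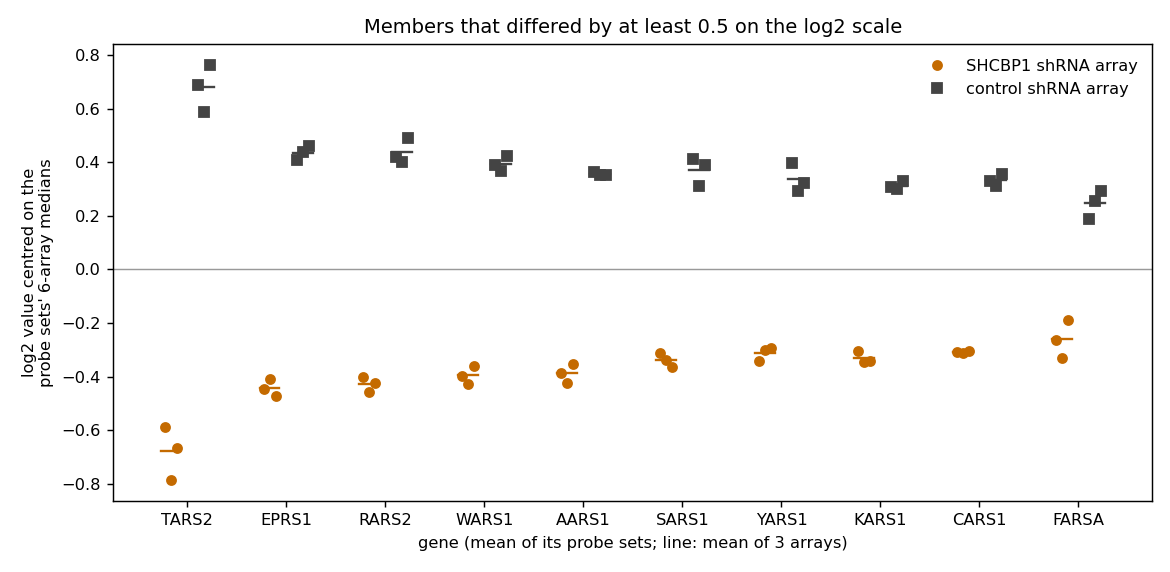
Centred log2 values (y axis) of the 10 members that differed by at least 0.5, with the SHCBP1 shRNA arrays as circles at the left of each gene and the control shRNA arrays as squares at the right. Lines mark means of 3 arrays. Every SHCBP1 shRNA value lies below 0 and every control shRNA value above it, and TARS2 shows the widest gap.

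Another 7 cytosolic enzymes fell by less than 0.5 and did not overlap between groups. VARS1 for valine and MARS1 for methionine each fell by 0.40, TARS1 for threonine by 0.39, IARS1 for isoleucine by 0.37, GARS1 for glycine by 0.32, LARS1 for leucine by 0.32 and NARS1 for asparagine by 0.28, with limma adjusted p-values from 7.29e-05 (IARS1) to 0.000544 (MARS1). Standard errors ran from 0.03 (NARS1) to 0.05 (MARS1). All probe sets of VARS1, TARS1, IARS1, GARS1, LARS1 and NARS1 fell past the test on their own. In MARS1 4 of 5 did so, between -0.59 and -0.29, and the fifth gave -0.08. LARS1, whose product is also known as a leucine sensor for mTORC1, had 1 probe set at -0.59 and the others at -0.18. TARS1 gave -0.20 without its _s_at and _x_at probe sets, a choice made after seeing the data.

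Of the smallest cytosolic changes, the calls of QARS1, FARSB, HARS1 and AIMP1 depended on single arrays and that of RARS1 did not. QARS1, the glutamine enzyme, fell by 0.12 ± 0.03 (limma adjusted p = 0.0214), and RARS1 for arginine rose by 0.18 ± 0.04 (limma adjusted p = 0.005), HARS1 for histidine by 0.12 ± 0.03 (0.0176) and AIMP1, the scaffold, by 0.13 ± 0.03 (0.015), each of the 3 rises below 0 with spike-in scaling. QARS1 lost its call without control shRNA replicate 1 or 3 or SHCBP1 shRNA replicate 2 or 3 (limma adjusted p = 0.0731, 0.0627, 0.0713 and 0.0583). HARS1 lost it without control shRNA replicate 1 or SHCBP1 shRNA replicate 1 or 3 (0.0622, 0.0516 and 0.0592), and AIMP1 without control shRNA replicate 1 or SHCBP1 shRNA replicate 2 (0.0549 and 0.053). FARSB passed in 1 of 6 such fits, the one without SHCBP1 shRNA replicate 1 (0.0454), and gave 0.0554, 0.0684 and 0.0629 without control shRNA replicates 1, 2 and 3 and 0.0543 and 0.0913 without SHCBP1 shRNA replicates 2 and 3. RARS1 passed in all 6. The count of 4 cytosolic rises was therefore 1 without control shRNA replicate 1 and 2 without SHCBP1 shRNA replicate 2 or 3. The 5 probe sets of AIMP1 ran from -0.04 to 0.29.

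The counts by subgroup that follow stand beside 19.0% lower and 22.0% higher over all genes, with a median of 0.02. By place in the cell, 6 of 8 members of the multisynthetase complex fell (median -0.34) and so did 10 of 12 cytosolic members outside it (median -0.46). The structural classes of the enzymes, which differ in the fold of the catalytic site, had medians of -0.40 for 9 cytosolic class I genes, of which 8 fell, and -0.39 for 9 class II genes, of which 7 fell. By regulation, 12 cytosolic genes were listed from background knowledge as ATF4 targets (AARS1, CARS1, EPRS1, GARS1, IARS1, LARS1, MARS1, NARS1, SARS1, TARS1, WARS1 and YARS1). All 12 fell, with a median of -0.52. The other 8 cytosolic members (FARSA, FARSB, HARS1, KARS1, QARS1, RARS1, VARS1 and AIMP1) gave 4 falls and 4 rises with a median of -0.0046, their rises turning to falls with spike-in scaling. That list was drawn up with the fall of ATF4 target genes in these data already known, so it is a description and not independent support.

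**Figure D3:**
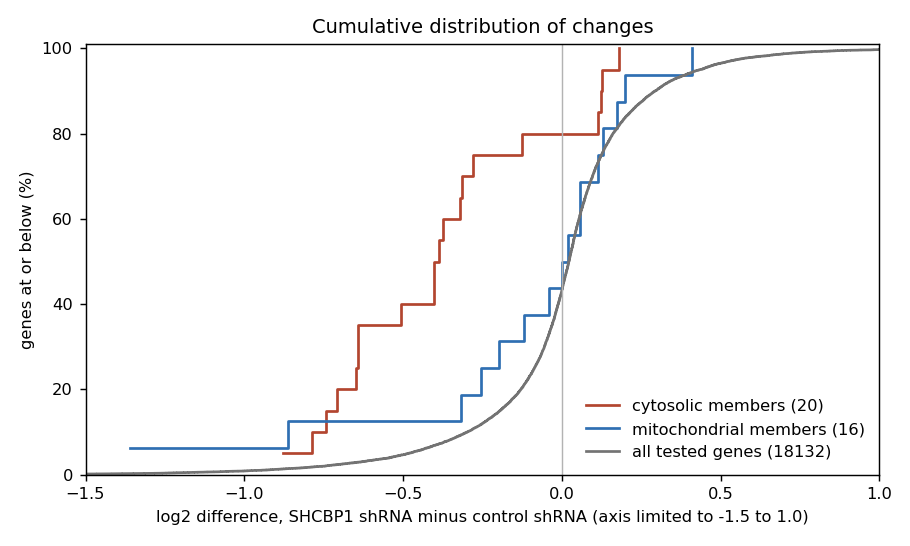
Cumulative share of genes (y axis, %) at or below each log2 difference (x axis, SHCBP1 shRNA minus control shRNA, limited to -1.5 to 1.0) for 20 cytosolic members, 16 mitochondrial members and 18132 tested genes. The cytosolic curve lies left of that of all genes from -0.88 upward, with medians of -0.40 and 0.02, and the mitochondrial median is 0.01.

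In the mitochondrial set, TARS2 fell furthest of all members. TARS2, the threonine enzyme of the mitochondrion, had -0.59, -0.79 and -0.67 in the SHCBP1 shRNA arrays, against 0.69, 0.59 and 0.76 in the control shRNA arrays. These arrays spread more than those of the cytosolic genes, and the groups still lie far apart. The change was -1.36 ± 0.06 (2.57-fold, limma adjusted p = 3.94e-06), in the lowest 0.276% of all genes, and it was the 1 member with a fall of at least 2-fold (0.904% of all genes). Its probe sets gave -1.43 and -1.28, and a further one that names EMX1 as well as TARS2 gave -1.38.

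RARS2, the mitochondrial arginine enzyme, had -0.40, -0.46 and -0.42 in the SHCBP1 shRNA arrays, against 0.42, 0.40 and 0.49 in the control shRNA arrays. It fell by 0.86 ± 0.04 (limma adjusted p = 3.01e-06) on 1 probe set, with no overlap. No other mitochondrial member changed by as much as 0.5.

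PARS2, the mitochondrial proline enzyme, had -0.22, -0.23 and -0.14 in the SHCBP1 shRNA arrays, against 0.10, 0.11 and 0.16 in the control shRNA arrays. AARS2, the mitochondrial alanine enzyme, had -0.14, -0.12 and -0.13 in the SHCBP1 shRNA arrays, against 0.17, 0.11 and 0.09 in the control shRNA arrays. IARS2, the mitochondrial isoleucine enzyme, had -0.07, -0.10 and -0.09 in the SHCBP1 shRNA arrays, against 0.14, 0.07 and 0.13 in the control shRNA arrays. In all of PARS2, AARS2 and IARS2 the SHCBP1 shRNA arrays were the lower group without overlap, and the changes were -0.32 ± 0.04, -0.26 ± 0.04 and -0.20 ± 0.04 (limma adjusted p = 0.000385, 0.000719 and 0.0027). The probe sets of AARS2 disagreed in size, at -0.46 and -0.05, and the one at -0.05 did not pass by itself.

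Of the rises, each below 0 with spike-in scaling, that of CARS2, the mitochondrial cysteine enzyme, was the largest. CARS2 had 0.20, 0.20 and 0.17 in the SHCBP1 shRNA arrays, against -0.30, -0.22 and -0.15 in the control shRNA arrays, and changed by 0.41 ± 0.05 (limma adjusted p = 0.000237). One of its 3 probe sets rose by 0.84, and the others by 0.17 and 0.22. With the median of the probe sets in place of the mean, CARS2 gave 0.22.

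YARS2, the mitochondrial tyrosine enzyme, had 0.14, 0.10 and 0.08 in the SHCBP1 shRNA arrays, against -0.11, -0.11 and -0.08 in the control shRNA arrays, a change of 0.20 ± 0.03 (limma adjusted p = 0.0021) that is below 0 with spike-in scaling. EARS2, the mitochondrial glutamate enzyme, had 0.11, 0.08 and 0.07 in the SHCBP1 shRNA arrays, against -0.04, -0.15 and -0.08 in the control shRNA arrays, a change of 0.17 ± 0.04 (limma adjusted p = 0.0082), also below 0 on the spike-in scale. In both the SHCBP1 shRNA arrays were the higher group on the deposited scale, and both kept their call whichever array was left out.

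The neighbours HARS1 and HARS2 gave near-equal means over their probe sets, but the 2 probe sets of HARS2 differed. One gave 0.22 and passed on its own, and the other gave 0.04 and did not. HARS2, the mitochondrial histidine enzyme, had 0.03, 0.09 and 0.09 in the SHCBP1 shRNA arrays, against -0.07, -0.09 and -0.03 in the control shRNA arrays, and rose by 0.13 ± 0.04 (limma adjusted p = 0.023), beside 0.12 for HARS1, both below 0 with spike-in scaling. HARS2 lost its call without control shRNA replicate 1 or 2 or SHCBP1 shRNA replicate 2 or 3 (limma adjusted p = 0.0685, 0.0688, 0.0741 and 0.075). The 2 genes are read in opposite directions from starts with 84 bases between them in RefSeq, so both promoter windows share this stretch, printed on the plus strand (chr5:140691371-140691454, GRCh38.p14). It is 59.5% G and C, lies before the start of each gene and holds no match to the motif searched above.
HARS1 and HARS2: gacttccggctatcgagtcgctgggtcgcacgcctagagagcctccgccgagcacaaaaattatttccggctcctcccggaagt

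The other 7 mitochondrial members did not pass. NARS2 for asparagine was nearest 0, with -0.0036, -0.0504 and 0.0336 in the SHCBP1 shRNA arrays, against 0.0324, -0.0600 and 0.0036 in the control shRNA arrays, so the groups overlap fully (0.0012, 95% interval -0.09 to 0.10). SARS2 for serine gave 0.02 ± 0.08 with 1 probe set at -0.21 and the other at 0.25. MARS2, VARS2 and LARS2 lay at 0.06, 0.06 and 0.11, and all 3 overlapped between groups. WARS2 gave -0.04 with 4 probe sets from -0.31 to 0.10, of which the one at -0.31 passed by itself. FARS2 for phenylalanine gave -0.12 ± 0.04 (limma adjusted p = 0.0688) and passed without control shRNA replicate 3 (limma adjusted p = 0.0356).

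**Figure D4:**
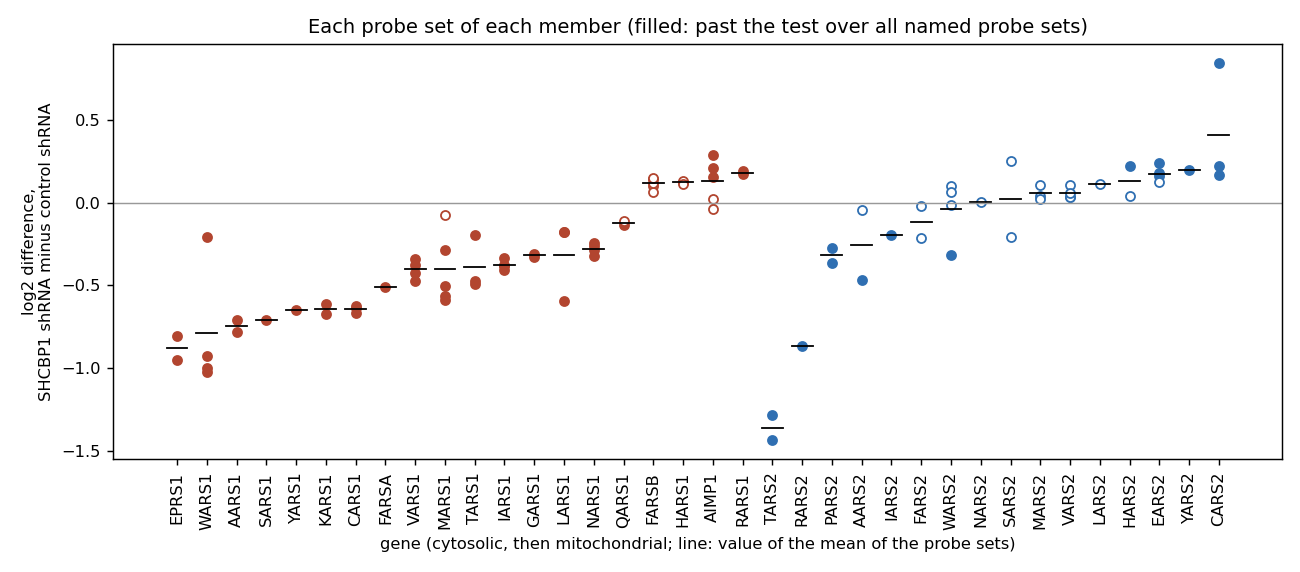
Log2 difference (SHCBP1 shRNA minus control shRNA, y axis) of each of the 93 probe sets of the 36 members, filled where it passed limma's test over all named probe sets and open where not, with a line at the value of the gene. Cytosolic genes are at the left and mitochondrial genes at the right. Probe sets of one gene lie close together for most members and farther apart for WARS1, MARS1, LARS1, TARS1, AIMP1, AARS2, WARS2, SARS2 and CARS2.

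Probe sets that name a member together with another gene did not enter these values. Those shared by VARS2 with its overlapping neighbour GTF2H4 fell by 0.34 and 0.27, while the 4 that name VARS2 alone ran from 0.03 to 0.10 and none of these 4 passed. The one shared by HARS1 and ATP13A5 fell by 0.17, opposite in direction to the 3 of HARS1 alone. Those 3 rose by 0.11 to 0.13 on the deposited scale, and none of them passed singly. The shared ones did pass (limma adjusted p = 0.0032 and 0.0104 for VARS2 and 0.0102 for HARS1).

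Set side by side for the same amino acid, the cytosolic gene changed downward relative to the mitochondrial one in 11 of 13 pairs, with a median difference of -0.46 between the changes. Among these 11, cysteine had CARS1 at -0.64 and CARS2 at 0.41 (below 0 with spike-in scaling), a difference of -1.05, where the median of the probe sets in place of the mean gives CARS2 0.22. Tyrosine had YARS1 at -0.65 and YARS2 at 0.20 (also below 0 with spike-in scaling), and tryptophan had WARS1 at -0.79 and WARS2 at -0.04. Threonine and arginine ran the other way: TARS1 gave -0.39 and TARS2 -1.36, and RARS1 gave 0.18 and RARS2 -0.86, differences of 0.97 and 1.04. For histidine, counted among the 11, the difference was -0.0067 and the groups overlapped. Pairs were formed only from symbols that differ in the final digit, so EPRS1, FARSA and FARSB were not paired. A shift common to all genes of an array cancels in these differences. No test was made over the pairs because the members were chosen with earlier results known.

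**Figure D5:**
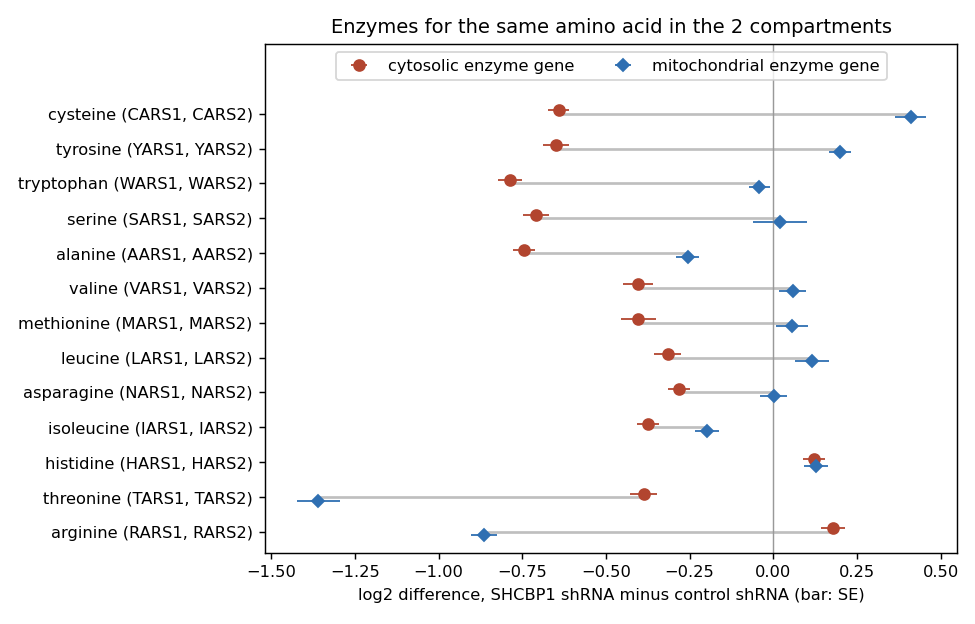
Log2 difference (SHCBP1 shRNA minus control shRNA, x axis, bars are SE) of the cytosolic gene (circle) and the mitochondrial gene (diamond) for each of 13 amino acids, ordered by the gap between them. The circle lies left of the diamond in 11 pairs (for histidine by a difference of -0.0067), and right of it for threonine and arginine.

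The counts for related genes that follow stand beside 19.0% lower and 22.0% higher over all genes. Human mitochondria have no glutamine enzyme of their own: EARS2 loads glutamate onto the glutamine tRNA, and an amidotransferase made of QRSL1, GATB and GATC converts it. GATB rose by 0.59 ± 0.10 and QRSL1 gave -0.33 ± 0.04, a fall (limma adjusted p = 0.002 and 0.000492). GATC, at -0.16 ± 0.06, did not pass (limma adjusted p = 0.0775). QRSL1 and GATC were named after their values were seen. In the list they belong to, of genes for tRNA editing, peptidyl-tRNA release and mitochondrial charging, 4 of 10 measured fell and 3 rose (median -0.01). One of the 3 rises was that of TARS3, a synthetase gene outside the naming rule used here (0.28, below 0 with spike-in scaling). TARS3 was named after its value was seen. DTD1, which removes wrongly attached D-amino acids from tRNA, fell by 0.62, while DTD2, a related deacylase, was higher by 0.38 (below 0 with spike-in scaling).

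Upstream of charging, genes for tRNA maturation and export showed 4 falls and 8 rises among 19 measured (median 0.05), the falls being near the share over all genes. XPOT, the exporter that carries tRNA out of the nucleus and a known ATF4 target, had the largest change, with a fall of 1.17 ± 0.06 (limma adjusted p = 4.03e-06). TSEN15, a subunit of the tRNA splicing endonuclease, fell by 1.06 ± 0.04, and RPP14, a subunit of ribonuclease P, was higher by 0.71 ± 0.06. TRNT1, which adds the CCA end to which the amino acid is attached, was higher by 0.65 ± 0.04 and was named after its value was seen. RPP14 and TRNT1 stay above 0 with spike-in scaling, since both exceed its shift of 0.43.

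Downstream of charging, 5 of 9 genes of cytosolic elongation fell and 0 rose (median -0.14), against 19.0% lower over all genes. One of the 5 is EEF2K, which encodes a kinase that inhibits the elongation factor EEF2 and was named after its value was seen (-0.35). EIF5A, which helps the ribosome through proline stretches, fell by 0.96, EEF1A1, which brings charged tRNA to the ribosome, by 0.51, and EEF1A2, its close relative, by 0.38. Of 9 measured mitochondrial translation factors 2 fell and 2 rose (median -0.02), near the shares over all genes. MTRF1L, a release factor, was higher by 0.51, the elongation factor gene GFM1 was higher by 0.24 (below 0 with spike-in scaling), and the initiation factor gene MTIF3 fell by 0.24.

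Among 20 genes of GCN2 and eIF2 signalling, in which GCN2 reads uncharged tRNA, 10 fell and 5 rose (median -0.12), the rises being near the share of 22.0% over all genes. EIF2AK4, which encodes GCN2 itself, fell by 0.68 ± 0.04, IMPACT, an inhibitor of GCN2, by 0.97 ± 0.07, and CEBPB, a transcription factor that can pair with ATF4, by 0.71 ± 0.05. ATF4 was lower too, by 0.37 ± 0.03 (limma adjusted p = 7.67e-05), and EIF2S1, which encodes the alpha subunit of eIF2, was higher by 0.47 ± 0.04 (limma adjusted p = 5.6e-05), a value that stays just above 0 with spike-in scaling. ATF4 and EIF2S1 were named after their values were seen. Whether the changes of these genes bear on those of the synthetases was not tested.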

How the data were processed

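RNA from 3 SHCBP1 shRNA and 3 control shRNA samples was measured on 1 array each. The authors deposited 1 log2 value per probe set and array, made with RMA per the submitters' processing notes. The log base, the software and the later centring of all 49395 probe sets on their 6-array medians are not described in the sources used here, and base 2 was taken because RMA uses it. RMA's quantile step removes any shift common to all transcripts. From these values, the probe sets that name 1 gene in the platform annotation (44988, without 102 control probe sets) were averaged per gene, with no filter on low values. The moderated test of limma (version 3.58.1, R 4.3.3) was fitted without pairing to all 18132 genes, and p-values were adjusted by Benjamini-Hochberg. The fit was tested on simulated data. Differences between arrays of a group had an SD of 0.131 to 0.140 over probe sets, against 0.346 to 0.352 between groups, so no array repeated another. Array values are given for members with a change of at least 0.5, for mitochondrial members past the test and for the member nearest 0 in each compartment, and up to 3 genes past the test are named per related list. The members, lists and tests were chosen with earlier results of these data known. Promoter sequences are RefSeq's (GRCh38.p14).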

Additional observations from a re-analysis of the deposited data

Results flagged for a closer look

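Control probe sets outside the gene comparisons differed between the groups. For 28S ribosomal RNA, the control at the 5′ end averaged 1.40 in the SHCBP1 shRNA arrays and -1.40 in the control shRNA arrays, a log2 difference of 2.80 ± 0.03 (SE, n = 3 arrays per group). The 24 probe sets of the poly-A spike-in controls were higher by 0.43 ± 0.04, with means of 0.21 in the SHCBP1 shRNA arrays and -0.22 in the control shRNA arrays. The controls for ACTB were higher by 0.20 (3′) and 0.28 (5′), and those for GAPDH by 0.04 (3′) and 0.05 (5′). The part of these differences in the changes of the synthetase genes was not tested.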

How the results depend on the processing

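Repeated quantile normalization, centring of arrays, robust moderation and array weights gave 16 cytosolic falls and 4 rises in each compartment, as reported, with 29 or 30 members passing. In these settings 7344 to 7498 of all 18132 genes passed. Scaling to the spike-in controls gave medians of -0.83 (cytosolic) and -0.42 (mitochondrial) and 15 mitochondrial falls, and put below 0 the 13 members reported above it: FARSB -0.32, HARS1 -0.31, RARS1 -0.25, AIMP1 -0.31, CARS2 -0.0242, EARS2 -0.26, HARS2 -0.31, LARS2 -0.32, MARS2 -0.38, NARS2 -0.43, SARS2 -0.41, VARS2 -0.38 and YARS2 -0.24. With that scaling 16709 of all 18132 genes passed, and the median over all genes was -0.41. NARS2, SARS2 and WARS2, close to 0 as reported, also changed sign under some other settings. The cytosolic median was -0.43 with the median of the probe sets and -0.50 with the probe set of largest spread, where cytosolic rises numbered 2 in place of 4. Only 11 members, 5 cytosolic and 6 mitochondrial, have a plain probe set (none of the endings _s_at, _x_at or _a_at). Of these 4 passed, 3 cytosolic and 1 mitochondrial and all lower, with a cytosolic median of -0.21. Fewer genes were tested here, and 1900 of 8354 passed. Leaving out each array gave 24 to 28 members passing, 15 to 16 cytosolic and 5 to 6 mitochondrial falls, and medians of -0.41 to -0.38 and -0.02 to 0.03. Among all 18132 genes 6655 to 6840 passed in these fits. Leaving out _s_at and _x_at probe sets, chosen after seeing the data, left 34 members, of which 25 passed, with 2 cytosolic rises. In that setting 6315 of 16701 tested genes passed. With the replicate number as a block 28 passed, FARSB being lost (limma adjusted p = 0.0591), and 7092 of all 18132 genes passed. Same-numbered samples had correlations of deviations of 0.02, -0.05 and 0.07, and differently numbered ones ran from -0.10 to 0.08. With 3 arrays per group this cannot decide whether same-numbered samples were prepared together. With 3 arrays per group and no brightness in the values, signal over background could not be judged.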

Other observations

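The motif found in the cytosolic synthetase promoters was also read over all tested genes as a description. Of 522 tested genes that hold TGATGNAA on either strand in a RefSeq window, 104 fell (19.9%) and 81 rose (15.5%). Of 13903 genes without it, 2757 fell (19.8%) and 3233 rose (23.3%). The share that fell was almost the same with and without these letters, the share that rose was lower with them, and the median changes were 0.01 and 0.02. The form with C at the free position was not compared in this way. Whether the motif bears on the changes was not tested.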
